A study of Homo sapiens with 4 samples.

Results

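The enzymes that make serine from a glycolytic intermediate and pass its carbon on to folate were examined as a set of 9 genes: PHGDH, PSAT1 and PSPH, which synthesise serine, SHMT1 and SHMT2, which split serine into glycine and a folate-bound carbon, and MTHFD1, MTHFD2, MTHFD1L and ALDH1L2, which change the oxidation state of that carbon or release it. Each gene was found by its symbol among the 64252 gene IDs of the deposited count table, and all 9 matched 1 ID and passed the low-count filter. The set was chosen by pathway and selected on the measured fold changes of this same comparison, which were known when it was proposed, so the differences between groups below describe the set and do not support its choice. RNA was sequenced from SK-N-BE(2), an established human neuroblastoma line with amplified MYCN. The control group (shScb) received a scramble short hairpin RNA, and the other group (shTTC8) received a hairpin against TTC8, a subunit of the BBSome, which moves membrane proteins through the primary cilium. Each group had 2 libraries, all from the same line. The sources used here give no hairpin sequence, no number of hairpins, no promoter driving them and no time of harvest, so an effect of the hairpin on other targets cannot be told apart from that of TTC8. They also do not say that replicate libraries were separately cultured, and the p-values may therefore rest on technical spread alone.

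Serine synthesis leaves glycolysis at phosphoglycerate. PHGDH oxidises it, PSAT1 transfers an amino group from glutamate, giving alpha-ketoglutarate as a by-product, and PSPH removes the phosphate. SHMT enzymes then move a carbon from serine to tetrahydrofolate, in the cytosol (SHMT1) or the mitochondrion (SHMT2). In mitochondria MTHFD2 oxidises this unit, and MTHFD1L releases it as formate, which the trifunctional cytosolic enzyme MTHFD1 takes up again for purine and thymidylate synthesis. ALDH1L2 oxidises mitochondrial formyl-tetrahydrofolate to carbon dioxide with production of NADPH. Many of these genes are known targets of the transcription factor ATF4, and several of MYC family proteins.

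Sequencing depth was 51168727 and 55331449 counts for shScb and 38284663 and 40863047 counts for shTTC8. Values below are CPM, the counts of a gene relative to the library total, after scaling of library sizes by the trimmed mean of M values. TTC8 itself stood at 196 and 191 CPM in the shScb libraries and at 29.1 and 30.6 CPM in the shTTC8 libraries. TH and DBH, enzymes of catecholamine synthesis that mark noradrenergic neuroblastoma cells, were detected in every library, at 548 and 574 CPM (TH) and 228 and 241 CPM (DBH) in shScb. Both were lower in shTTC8, at 446 and 426 CPM (TH) and 137 and 132 CPM (DBH). Markers of other cell types moved with the groups too. All 7 tested of 10 fibroblast and endothelial markers were lower, with a summed level of 476 to 495 CPM in shScb and 226 to 236 CPM in shTTC8, and PECAM1 was at 0 in every library. LUM, at 191 and 180 CPM in shScb and 28.6 and 31.2 CPM in shTTC8, made up most of that difference. Schwann and glial markers, with SOX10 at 0, summed to 37.2 and 39.0 CPM in shScb and 14.7 to 16.1 CPM in shTTC8 (1 of 6 tested lower), and the lower gene, NGFR (30.7 and 33.3 against 9.09 and 8.58 CPM), carried the difference. Blood and epithelial markers, with CD3E and CDH1 at 0, summed to 24.2 to 25.1 and 11.5 to 11.6 CPM (2 of 6 tested lower). PTPRC, at 15.4 ± 0.520 against 3.27 ± 0.394 CPM (SD, n = 2), carried nearly all of that difference, while KRT8 and CD14 were not called. The part of these shifts in the results below was not tested, and in bulk RNA fewer cells of a type and less RNA per cell cannot be told apart.

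Transcripts of the set were lower in shTTC8 as a sum and unequally so gene by gene. The 9 genes together took 1555 and 1558 CPM in the shScb libraries and 1168 and 1172 CPM in the shTTC8 libraries. PSAT1 fell most, to 35.1% of its shScb level, and ALDH1L2 and SHMT2, both mitochondrial, fell to 59.1% and 61.0%. MTHFD1, MTHFD1L and PHGDH fell to 76.7%, 78.3% and 83.5%. PSPH, SHMT1 and MTHFD2 did not pass the test. With edgeR's quasi-likelihood test, adjusted over all 19610 tested genes at 0.05, 6 of the 9 were lower and none higher, where the background was 16.7% of all tested genes lower, 15.2% higher and 31.9% in either direction. None of the 9 was higher at an unadjusted p under 0.05 or with DESeq2 or limma-voom either. A gene past this threshold is called lower or higher below. Because the set was chosen with this contrast known, nothing is read from that count. All members are protein coding and well expressed, and in protein-coding genes with a mean of at least 10 CPM, a subset chosen after seeing the data, the background was 24.4% lower and 21.8% higher. In 8 of 9 members both shTTC8 libraries lay below both shScb libraries, against 32.9% of all tested genes, and in none did both lie above, against 32.5%. The median log2 fold change of the 9 was -0.35, and that of all tested genes was 0.0035.

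**Figure D1:**
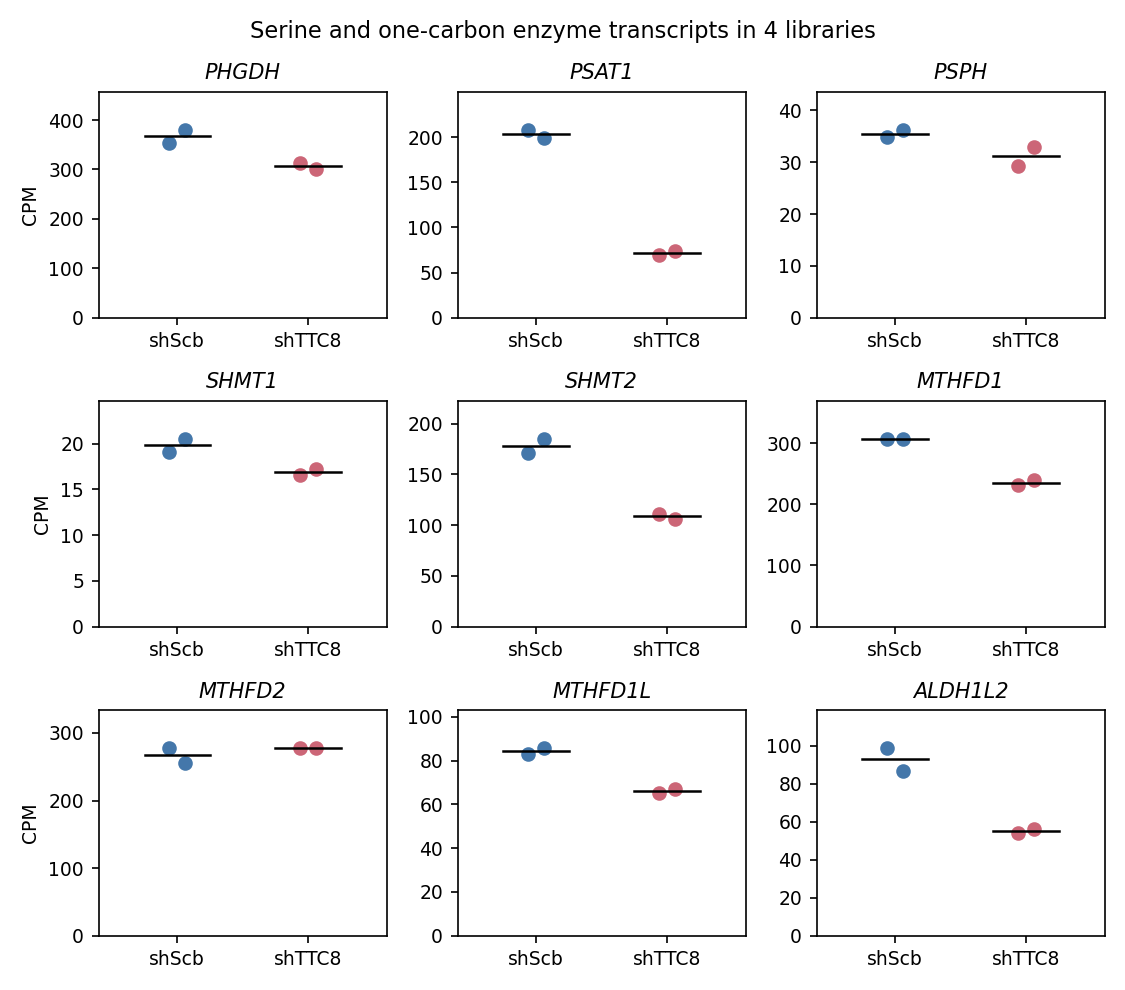
CPM of each of the 9 enzyme transcripts, on a linear axis from 0, in the 2 shScb libraries (blue) and the 2 shTTC8 libraries (red), with black lines at the group means. The groups are farthest apart for PSAT1, and MTHFD2 is the gene whose groups overlap.

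The first enzyme of serine synthesis, PHGDH, changed little. PHGDH (ENSG00000092621, plus strand of chromosome 1, 119648411 to 119744226, GRCh38) had 355 and 381 CPM in the shScb libraries and 314 and 301 CPM in the shTTC8 libraries. The groups did not overlap, and the gap between them was wider than the difference within either group. Its log2 fold change was -0.26 (SE 0.06). Without shTTC8 replicate 2 the PHGDH call was lost (log2 fold change -0.23, edgeR adjusted p = 0.0982).

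PSAT1, the aminotransferase of the second step, had the largest difference of the set. PSAT1 (ENSG00000135069, plus strand of chromosome 9, 78297143 to 78330093, GRCh38) was represented by 10529 and 10826 counts (208 and 199 CPM) in shScb and by 2690 and 3055 counts (69.3 and 73.8 CPM) in shTTC8. Both shTTC8 libraries stood far below both shScb libraries, with a spread inside each group that was small beside the gap. The log2 fold change was -1.51 (SE 0.06, 95% interval -1.65 to -1.37), the 344th lowest of 19610. All 4 annotated processed copies of PSAT1 had no counts in any library.

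The stretch of 250 bases before the RefSeq start of PSAT1 is shown because no other member fell as far. It lies at chr9:78296875-78297124 on the plus strand (GRCh38.p14), and capitals mark CCAAT, which binds the factor NF-Y:
PSAT1: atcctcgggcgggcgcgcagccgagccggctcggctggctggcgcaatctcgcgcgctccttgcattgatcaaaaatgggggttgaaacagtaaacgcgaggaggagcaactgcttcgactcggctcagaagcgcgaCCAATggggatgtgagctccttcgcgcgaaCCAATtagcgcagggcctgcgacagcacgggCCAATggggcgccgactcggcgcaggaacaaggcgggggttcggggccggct

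RefSeq promoter windows, from 250 bases before to 50 after a start, were found for 6 of the 9 members, without PSPH, SHMT2 and ALDH1L2. They were searched on both strands for CCAAT, for the E-box CACGTG that MYC and MAX proteins bind, and for TGATGNAA, the core of the composite element that ATF4 binds with C/EBP partners. No match shown shares bases with another. PSAT1 held 3 CCAAT matches, starting at -113, -83 and -52 from its start, and neither of the other motifs. CCAAT was also found in PHGDH, SHMT1, MTHFD1, MTHFD2 and MTHFD1L, and 34.6% of all 35116 windows of this length held it. CACGTG was found in MTHFD1 and MTHFD1L (7.26% of all windows), and TGATGNAA in MTHFD1L (3.62% of all windows), where both were at the same bases of 3 overlapping windows and absent from the window of another, downstream start. These matches are letters in a window and show no binding. The stretches below hold these CACGTG and TGATGNAA matches. MTHFD1L alone of the 6 held both motifs, and MTHFD1 held CACGTG without TGATGNAA. The stretches are given with the motif in capitals, all on the plus strand of GRCh38.p14, at chr14:64388326-64388355, chr6:150866320-150866349 and chr6:150866346-150866375:
MTHFD1 CACGTG: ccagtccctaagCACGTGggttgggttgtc
MTHFD1L CACGTG: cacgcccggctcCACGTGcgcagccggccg
MTHFD1L TGATGNAA: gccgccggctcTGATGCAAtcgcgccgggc

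PSPH, the phosphatase of the last step, was not called. PSPH (ENSG00000146733, minus strand of chromosome 7, 56011051 to 56051604, GRCh38) had 34.8 and 36.3 CPM in the shScb libraries and 29.4 and 33.0 CPM in the shTTC8 libraries. The groups did not overlap, yet the interval of its log2 fold change ran from -0.38 to -0.0025 before adjustment over all genes (log2 fold change -0.19, SE 0.09, edgeR adjusted p = 0.117). Its pseudogene PSPHP1 had 4.25% as many counts, and how reads shared by the pair were assigned is not stated.

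To compare steps of serine synthesis within a library, PSAT1 was divided by PHGDH, a ratio of CPM that can be compared between libraries because gene length cancels. The ratio was 0.587 and 0.523 in shScb and 0.221 and 0.245 in shTTC8, 0.420 of the shScb mean. PSPH over PHGDH was 0.0981 and 0.0953 in shScb and 0.0936 and 0.110 in shTTC8, with overlapping groups. With 2 libraries against 2, an exact two-sided permutation test cannot give a p below 0.333, so these ratios are given as values alone.

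**Figure D2:**
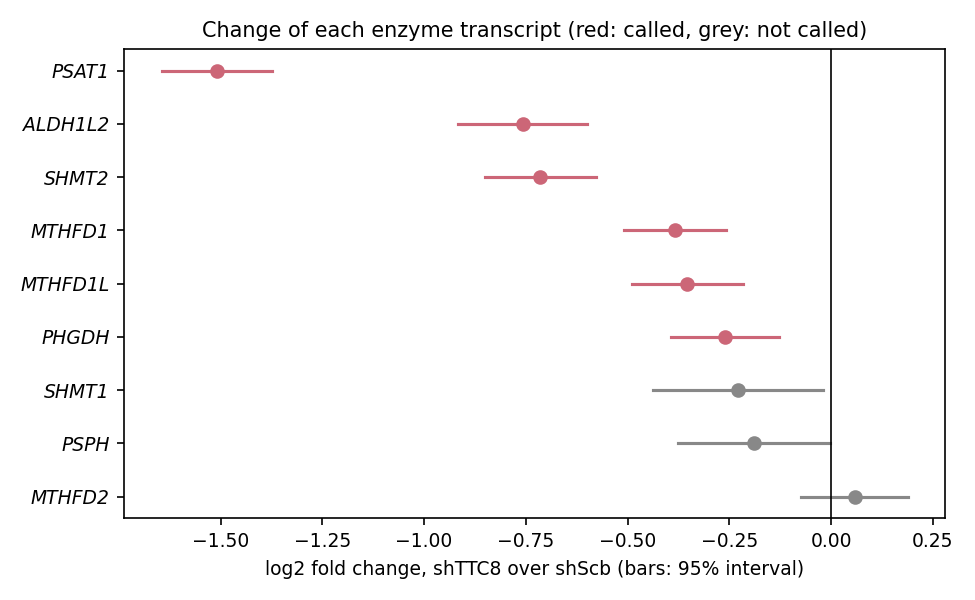
Log2 fold change of each enzyme transcript, shTTC8 over shScb, with 95% intervals from the edgeR fit before adjustment over genes, and with called genes in red and genes not called in grey. PSAT1 lies at -1.51, ALDH1L2 and SHMT2 near -0.7, and the interval of MTHFD2 holds 0.

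Of the 2 serine hydroxymethyltransferases, the mitochondrial SHMT2 fell and the cytosolic SHMT1 was not called. SHMT2 (ENSG00000182199, plus strand of chromosome 12, 57229327 to 57234935, GRCh38) had 171 and 185 CPM in the shScb libraries and 111 and 106 CPM in the shTTC8 libraries. Every shTTC8 value was below every shScb value, by far more than the replicates differed (log2 fold change -0.71, SE 0.06). SHMT1 (ENSG00000176974, minus strand of chromosome 17, 18327860 to 18363563, GRCh38) was the least abundant member, with 19.1 and 20.6 CPM in shScb and 16.6 and 17.2 CPM in shTTC8. Its log2 fold change was -0.23 (SE 0.10, edgeR adjusted p = 0.0906). SHMT1 shares 196 exonic bases with SMCR8 on the opposite strand, which had 68.0% as many counts, and the library kit does not mark strand. SHMT2 over SHMT1 in CPM was 8.96 and 9.01 in shScb and 6.68 and 6.17 in shTTC8. Per kilobase of all annotated exons, SHMT2 made up 93.1% ± 0.0238 of the pair in shScb and 90.6% ± 0.479 in shTTC8 (SD, n = 2). With the longest coding transcript as the length, it was 89.7% and 86.2%, and the direction follows from the CPM ratio whatever the length.

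The folate interconversion enzymes split. MTHFD1, the cytosolic trifunctional enzyme (ENSG00000100714, plus strand of chromosome 14, 64388031 to 64463457, GRCh38), had 307 and 307 CPM in the shScb libraries and 231 and 240 CPM in the shTTC8 libraries (log2 fold change -0.38, SE 0.06). MTHFD1L, the mitochondrial formate-producing synthetase (ENSG00000120254, plus strand of chromosome 6, 150865549 to 151101887, GRCh38), had 83.1 and 86.0 CPM in shScb and 65.3 and 67.1 CPM in shTTC8 (log2 fold change -0.35, SE 0.06). In both genes the shScb pair and the shTTC8 pair stood clearly apart. MTHFD1L over MTHFD1 in CPM was 0.271 and 0.280 in shScb and 0.283 and 0.279 in shTTC8, so the ratio between them overlapped between groups.

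MTHFD2, the mitochondrial dehydrogenase and cyclohydrolase between SHMT2 and MTHFD1L, did not follow its neighbours. MTHFD2 (ENSG00000065911, plus strand of chromosome 2, 74198562 to 74217565, GRCh38) had 278 and 256 CPM in the shScb libraries and 278 and 278 CPM in the shTTC8 libraries. The shTTC8 values were level with shScb replicate 1 and above shScb replicate 2. The log2 fold change was 0.06 (SE 0.06), and its 95% interval, -0.07 to 0.19, allows a level of at most 1.14 times that of shScb. That interval does not overlap those of SHMT2 (-0.85 to -0.58) and MTHFD1L (-0.49 to -0.22). The difference between these genes was not tested in its own right. MTHFD2 over MTHFD1 in CPM was 0.906 and 0.834 in shScb and 1.205 and 1.158 in shTTC8. Per kilobase of exons, MTHFD2 and MTHFD1L together made up 68.6% ± 0.845 of the trio with MTHFD1 in shScb and 73.7% ± 0.483 in shTTC8 (SD, n = 2). So the mitochondrial share of this trio was higher in shTTC8, while that of the SHMT pair was lower.

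ALDH1L2, which draws on the same mitochondrial folate pool as MTHFD2, fell. ALDH1L2 (ENSG00000136010, minus strand of chromosome 12, 105019784 to 105084577, GRCh38) had 99.0 and 86.6 CPM in the shScb libraries and 53.8 and 55.9 CPM in the shTTC8 libraries. The shScb pair was spread more than the shTTC8 pair, and the groups were far apart (log2 fold change -0.76, SE 0.07). ALDH1L2 shares 145 exonic bases with NOPCHAP1 on the opposite strand, which had 14.0% as many counts and was not lower (log2 fold change 0.13). ALDH1L2 over MTHFD2 in CPM was 0.356 and 0.338 in shScb and 0.193 and 0.201 in shTTC8. By compartment, 3 of 4 mitochondrial members and 3 of 5 cytosolic members were lower, beside 16.7% of all tested genes. Because the members were chosen with this contrast known, nothing is read from this split.

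**Figure D3:**
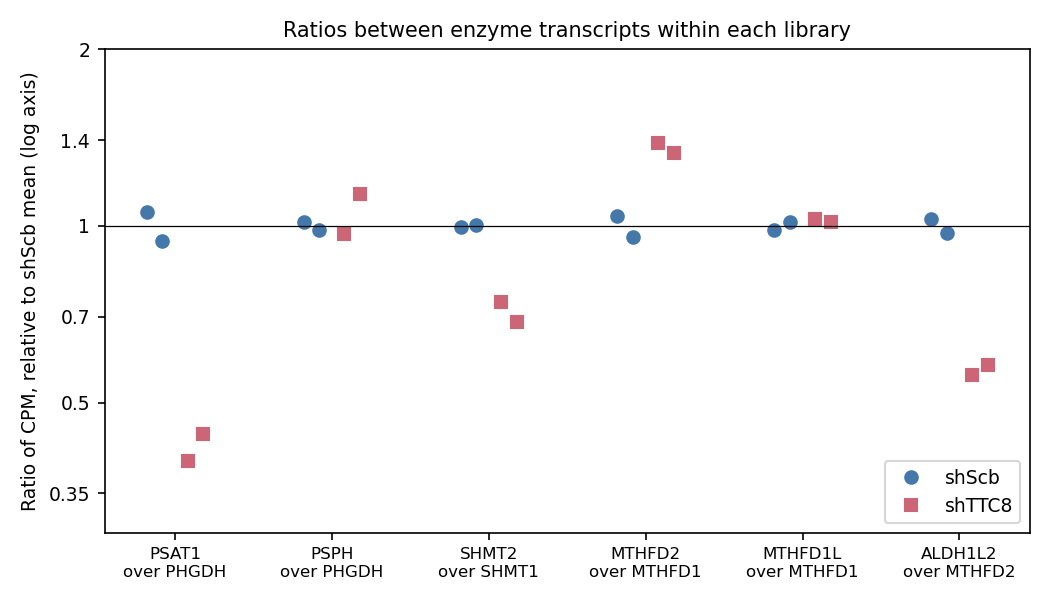
Ratios of CPM between pairs of enzyme transcripts in each library, divided by the shScb mean and drawn on a log axis, with shScb as blue circles and shTTC8 as red squares. PSAT1 over PHGDH, SHMT2 over SHMT1 and ALDH1L2 over MTHFD2 are lower in both shTTC8 libraries, MTHFD2 over MTHFD1 is higher in both, and the other ratios overlap.

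The order of the levels, in CPM per kilobase of annotated exons, changed at the top. In shScb, PSAT1 led at 93.1 ± 2.95, followed by MTHFD2 at 54.9 ± 3.16, PHGDH at 39.9 ± 2.00, SHMT2 at 36.8 ± 2.11 and MTHFD1 at 32.7 ± 0.0254 CPM per kilobase (SD, n = 2). PHGDH and SHMT2 were close neighbours, with PHGDH at 38.5 and 41.3 and SHMT2 at 35.3 and 38.3 CPM per kilobase, values that did not overlap but lay nearly end to end. MTHFD1L (16.8 ± 0.403), PSPH (12.9 ± 0.389), ALDH1L2 (10.9 ± 1.03) and SHMT1 (2.72 ± 0.146 CPM per kilobase) followed. In shTTC8, MTHFD2 led at 57.1 ± 0.0647 CPM per kilobase, and PHGDH at 33.3 ± 1.00 and PSAT1 at 32.7 ± 1.47 overlapped behind it. The order depends on the length used: per kilobase of the longest coding transcript PHGDH led in both groups, at 142 ± 7.14 in shScb and 119 ± 3.57 in shTTC8. By that length PSAT1 stood just after PHGDH in shScb and behind PHGDH, MTHFD2, SHMT2 and MTHFD1 in shTTC8.

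The 5 genes nearest to PSAT1 in log2 CPM, centred per gene, over the 4 libraries were LITAF, TTC30B, SERINC5, TXNRD1 and KCTD16, out of 8028 candidates with a mean of at least 20 CPM. LITAF, an endosomal membrane protein, stood at a distance of 0.0667 and had 39.6 and 38.2 CPM in shScb and 12.7 and 14.5 CPM in shTTC8. SERINC5 is a membrane protein of the family named serine incorporator, and TXNRD1 is the cytosolic thioredoxin reductase. Their log2 fold changes were -1.45 (SE 0.08) and -1.40 (SE 0.06). TTC30B has a near-identical paralog, so its counts are uncertain. With 4 libraries in 2 groups this likeness is mainly a like fold change.

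Around the members, 117 genes in 9 lists were examined. These lists were written with earlier results of these data known. Of the 109 that passed the low-count filter, 46 (42.2%) were lower and 17 (15.6%) higher, beside 16.7% and 15.2% of all tested genes, with a median log2 fold change of -0.17. The share higher was thus near that of all tested genes. In protein-coding genes with a mean of at least 10 CPM, a level that some listed genes do not reach, 24.4% were lower and 21.8% higher. The share higher of the listed genes lay below that. The counts of each list below are to be read against both backgrounds. Without shTTC8 replicate 1 the higher count was 11.

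Among 11 other folate enzymes 4 were lower and 1 higher (median log2 fold change -0.16), with 2 lower without shTTC8 replicate 2 and none higher without either shTTC8 library or with DESeq2. TYMS, thymidylate synthase, which uses the carbon unit carried by folate, fell by 1.26 on the log2 scale (SE 0.08) from 76.6 ± 5.01 CPM in shScb (SD, n = 2), but it shares exonic bases with ENOSF1, which had 27.5% as many counts. ALDH1L1, the cytosolic counterpart of ALDH1L2, was scarce at 2.60 ± 0.487 CPM in shScb (SD, n = 2) and changed by -1.06 (SE 0.27), and its call was lost without shScb replicate 2 (edgeR adjusted p = 0.0512). MTR, methionine synthase, changed by -0.27 (SE 0.07; edgeR adjusted p = 0.128 without shTTC8 replicate 2). MTHFS, which recycles formyl-folate, changed by 0.37 (SE 0.12) and shares exons with a readthrough gene. The MTHFS call was lost with DESeq2 (adjusted p = 0.0696) and without shScb replicate 1, shTTC8 replicate 1 or shTTC8 replicate 2 (edgeR adjusted p = 0.132, 0.151 and 0.0817) and with no low-count filter (0.0746). MTHFD2L, the paralog of MTHFD2, which was picked for mention after its values were seen, was not called (13.0 CPM in shScb and 15.4 CPM in shTTC8, edgeR adjusted p = 0.118).

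Of 9 tested carriers and retention enzymes for folate and serine, 5 were lower and none higher in edgeR, DESeq2 or limma-voom (median -0.26), with 3 lower without shTTC8 replicate 2. SLC46A1, the proton-coupled folate transporter gene, shares 4421 exonic bases with SARM1, which had 1273% as many counts, so the counts of SLC46A1 are uncertain. SLC46A1 had a log2 fold change of 0.39 and an unadjusted p under 0.05 (edgeR adjusted p = 0.0819). It was called higher without shScb replicate 2 (edgeR adjusted p = 0.0436) and without shTTC8 replicate 2 (0.0238). FOLR1, scarce at 1.57 ± 0.176 CPM in shScb (SD, n = 2), changed by -0.92 and was not called (edgeR adjusted p = 0.0694). FOLR1 was called lower with a replicate block (edgeR adjusted p = 0.0237) and with the filter of 1 CPM in 2 libraries (0.0396). SFXN1, the mitochondrial serine transporter, fell from 79.8 ± 1.17 to 65.0 ± 0.299 CPM (SD, n = 2). The related genes SFXN3 and SFXN2 changed by -0.61 (SE 0.08) and -0.56 (SE 0.13). FPGS, which adds the glutamate tail that keeps folates in the cell, changed by -0.24 (SE 0.07), a call lost without shTTC8 replicate 1 or 2 (edgeR adjusted p = 0.0806 and 0.11). Of 7 genes of glycine cleavage and use, 2 were lower and 2 higher (median 0.16), and the losses given next for GCSH and GATM left 1 of each. GCAT, a mitochondrial enzyme of threonine-derived glycine metabolism, changed by -0.66 (SE 0.09), and AMT, the folate-dependent aminomethyltransferase of the glycine cleavage system, rose by 0.66 (SE 0.15). GCSH, its lipoate-bearing partner, changed by -0.23 (SE 0.07; edgeR adjusted p = 0.119 without shTTC8 replicate 1 and 0.136 without shTTC8 replicate 2). GATM, at 0.682 ± 0.181 and 1.44 ± 0.217 CPM (SD, n = 2), was called higher, but not with DESeq2 (adjusted p = 0.106), with no low-count filter (edgeR adjusted p = 0.059) or without shScb replicate 1 or shTTC8 replicate 2 (edgeR adjusted p = 0.148 each).

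In the methionine cycle, which takes carbon from methyl-folate, 5 of 9 tested genes were lower and 1 higher (median -0.26). The lower count was 2 without shTTC8 replicate 1 and 3 without shTTC8 replicate 2. The higher gene, AHCYL2, was lost with DESeq2, no filter, non-robust fitting, and without shScb replicate 2 or shTTC8 replicate 2. MTAP, which salvages methionine from polyamine synthesis, fell from 101 ± 3.61 to 68.9 ± 0.0184 CPM, and AHCYL1, a relative of the hydrolase AHCY, changed by -0.39 (SE 0.06). MAT2A and MAT2B, catalytic and regulatory subunits for S-adenosylmethionine synthesis, changed by -0.25 (SE 0.06) and -0.29 (SE 0.07). Both calls were lost without shTTC8 replicate 1 (edgeR adjusted p = 0.0938 and 0.0508) and without shTTC8 replicate 2 (0.0573 and 0.0632). Among 15 tested genes of serine transport and use, 4 were lower and 3 higher (median -0.11). Without shTTC8 replicate 1 or 2, or at an adjusted p under 0.01, only SERINC5 of the 4 lower genes was called, and with scaling by library size alone 2 genes were lower. Besides SERINC5, the glycine transporter gene SLC6A9 rose by 0.77 (SE 0.13), SDSL, a serine dehydratase relative, by 1.27 (SE 0.21) and SERINC1 by 0.41 (SE 0.07). SLC6A9 shares exonic bases with a gene that had 20.3% as many counts.

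Purine synthesis, which consumes formyl-folate, had 8 of 13 genes lower and 2 higher (median -0.21), with 1 higher without shScb replicate 2 or shTTC8 replicate 1 or with DESeq2. PRPS1, which makes the ribose donor, fell from 79.7 ± 3.11 to 44.6 ± 0.392 CPM (SD, n = 2), and ADSS2 changed by -0.57 (SE 0.07). The IMP dehydrogenase isoenzymes went in opposite directions: IMPDH2 fell from 258 ± 6.35 to 152 ± 3.63 CPM and IMPDH1 rose from 100.5 ± 4.78 to 171 ± 4.94 CPM (SD, n = 2). In glycolysis, which supplies phosphoglycerate, 5 of 10 genes were higher and 1 lower (median 0.17). The higher count was 3 without shTTC8 replicate 1 or 2, and 2 genes were lower without shScb replicate 1 or with DESeq2 or limma-voom. PGAM1, which acts just after the branch point to serine, rose by 0.66 (SE 0.06), TPI1 by 0.54 (SE 0.06) and GPI by 0.28 (SE 0.06), and HK2, a hexokinase, changed by -0.48 (SE 0.06). PGAM1 and TPI1 have processed pseudogenes, so their counts are uncertain.

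**Figure D4:**
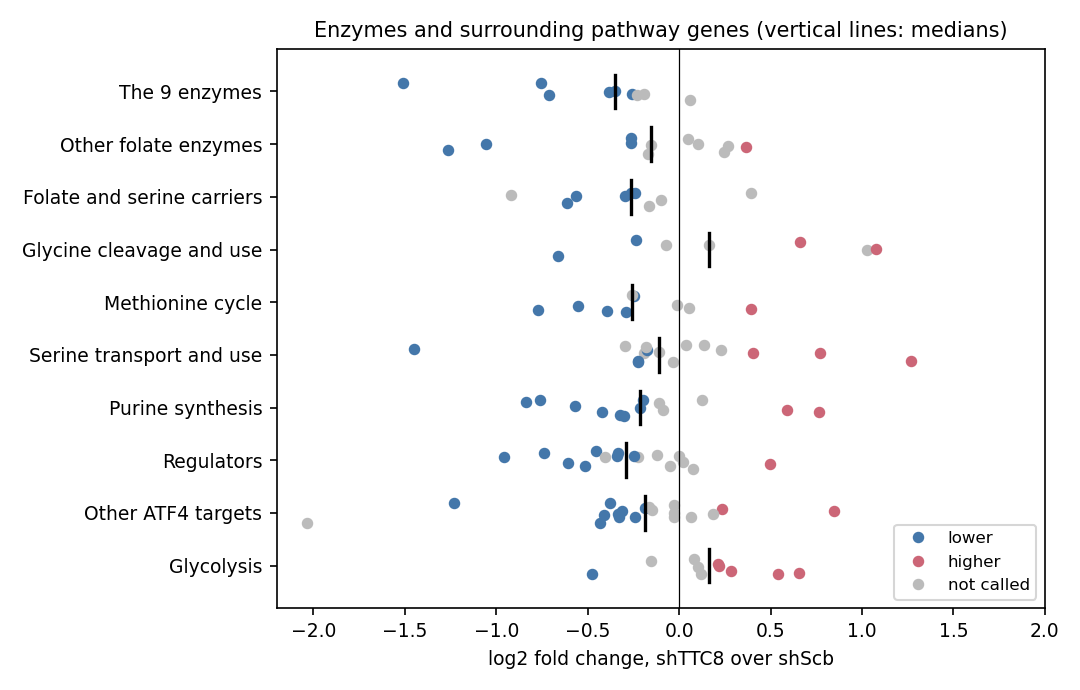
Log2 fold change, shTTC8 over shScb, of the 9 enzymes and of the tested genes in 9 surrounding lists, with called lower genes in blue, called higher genes in red, genes not called in grey and a black line at each median. The median of the 9 enzymes lies at -0.35, and those of the glycine and glycolysis lists lie above 0.

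Of the known regulators of these enzymes, ATF4 and MYCN fell. ATF4 had 560.0 and 599 CPM in the shScb libraries and 447 and 467 CPM in the shTTC8 libraries (log2 fold change -0.34, SE 0.06). ATF4 is controlled mainly at translation, which these data do not measure. MYCN stood at 5661 and 5815 CPM in shScb and at 3713 and 3820 CPM in shTTC8 (log2 fold change -0.61, SE 0.06), and MYC was at or near 0 counts in every library. Among 16 tested regulators 8 were lower and 1 higher (median -0.29), with none higher without shScb replicate 1 or shTTC8 replicate 1. They included CEBPB, an ATF4 partner, at -0.96 (SE 0.08), and the histone demethylase gene KDM4C at -0.74 (SE 0.11), which shares exonic bases with a non-coding gene. Of 19 other ATF4 targets 9 were lower and 2 higher (median -0.19), with 1 higher without shTTC8 replicate 1. ASNS, asparagine synthetase, fell from 100.4 ± 1.46 to 75.4 ± 2.14 CPM (SD, n = 2), SARS1, which charges serine tRNA, changed by -0.43 (SE 0.06) and SLC7A11, the cystine transporter, by -1.23 (SE 0.13). SESN2 rose by 0.84 (SE 0.11). The part of ATF4, MYCN or any other regulator in the differences among the 9 enzymes was not tested.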

How the data were processed

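Total RNA of 4 SK-N-BE(2) samples was extracted with TRIzol and made into Illumina TruSeq libraries, which do not mark strand, per the labels' protocols. HISAT2 2.2.0 and the build hg38 are named in the submitters' processing notes. The counter and its annotation are not named in the sources used here. The authors deposited 1 table of raw counts, whole numbers for each Ensembl gene ID and library. Groups came from sample titles.

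Symbols came from a gene name table (56105 IDs) or GENCODE 29 (486), and 7661 IDs had none. Positions and lengths were those of GENCODE 29 (GRCh38), and promoter windows those of RefSeq (GRCh38.p14). In R 4.3.3, edgeR 4.0.16 kept genes by filterByExpr, scaled libraries by TMM and ran the robust quasi-likelihood F test, two-sided, its p-values adjusted by Benjamini and Hochberg's method for all genes that passed the filter, with a threshold of 0.05. A standard error was obtained by dividing a log2 fold change by the root of its F value. SDs are over 2 libraries. Distances to PSAT1 used log2 CPM with a prior count of 2. The fit was tested on simulated counts, whose outcome is not given here and says nothing about the spread between these libraries. Replicates differed beyond sampling noise (chi-square per degree of freedom 11.4 in shScb and 6.40 in shTTC8). The biological coefficient of variation was 10.5%.

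The members and lists were chosen with earlier results of these data known. Named by rule were all members, TTC8, MYCN, MYC, ATF4, up to 4 called genes per list by smallest p, and the 5 genes nearest to PSAT1. MTHFD2L, SLC46A1, FOLR1, AHCYL2, single marker genes and genes that share sequence with a named gene were mentioned outside this rule. The alternatives tried were scaling by library size alone or by RLE, no filter, a filter of 1 CPM in 2 libraries, DESeq2 1.42.0, limma-voom (limma 3.58.1), non-robust fitting, a replicate block, each library left out, an adjusted p under 0.01 and another transcript length. The markers of the line are reported in part, and the others are not reported here.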

Additional observations from a re-analysis of the deposited data

How the results depend on the processing

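The 6 lower members kept that call under every scaling, filter and test tried and under an adjusted p of 0.01, and without each library in turn 5 to 6 were lower, PHGDH being lost without shTTC8 replicate 2. None was higher in any setting. MTHFD2, not called in any setting, had a log2 fold change between -0.0003 (without shScb replicate 2) and 0.1151 (without shScb replicate 1). Over all genes, 1880 to 3395 were higher and 2383 to 3555 lower when 1 library was left out, and 1917 were higher at an adjusted p under 0.01. Of the pathway genes, 11 to 17 were higher and 31 to 48 lower when 1 library was left out, 11 were higher with no low-count filter and 10 at an adjusted p under 0.01. The SHMT2 share differed by -3.55 points between groups with the longest coding transcript, against -2.50 points with all exons. Scaling by library size alone moved the median of all genes by 0.0414 on the log2 scale. With the replicate number as a block, 6 members were lower, and 3343 genes were lower and 3092 higher. The numbers share no stated batch, and deviations of same-numbered libraries correlated at 0.0317 across genes, which are not independent replicates, so the numbers were not taken as pairs. For each left-out library the lone sample is assumed to vary like the other group. PSPH and SHMT1 had the fewest counts of the members, and whether more depth or more libraries would change their calls was not tested.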
